A study of Homo sapiens with 3 samples.

Results

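The HOX gene clusters and the clustered protocadherin genes were examined in chromatin immunoprecipitation sequencing (ChIP-seq) of U2OS cells, a human osteosarcoma cell line. Peaks were taken where the summit, the position of highest signal, lay in 1 of 5 fixed windows of the human genome build hg19. These were HOXA (chromosome 7, 27.1 to 27.3 Mb), HOXB (chromosome 17, 46.58 to 46.83 Mb), HOXC (chromosome 12, 54.3 to 54.47 Mb), HOXD (chromosome 2, 176.92 to 177.08 Mb) and the protocadherin genes (chromosome 5, 140.15 to 140.9 Mb). They held 271 of 153468 Spindlin1 peaks and 319 of 177639 C11orf84 peaks. Untreated cells were used for a Spindlin1, a C11orf84 and an antibody-free Input library, 1 library each, and the peak lists of the 2 antibodies were analysed. With no replicates, every interval below for a count, share or ratio is an exact 95% interval for counting error only. Intervals of median folds instead reflect the spread among the peaks of 1 library. Intervals take neighbouring peaks as independent, which they are not, so they are likely too narrow.

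HOX genes encode transcription factors that set position along the body axis of the embryo, and their order along each chromosome follows the order of the body regions they pattern. In many cell types active HOX genes carry methylation of histone H3 at lysine 4, silent ones carry Polycomb marks, and both can occur within the same cluster. Clustered protocadherins are cell adhesion proteins of neurons, each variable exon having its own promoter. Spindlin1 binds the methylated tail of histone H3 through its Tudor-like repeats. C11orf84, also called SPINDOC, is known to bind Spindlin1.

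In the order of RefSeq genes (assembly GRCh38.p14), HOXA comprises 11 protein-coding HOX genes, HOXB 10, HOXC 9 and HOXD 9. EVX1 and EVX2, which are homeobox genes too, follow HOXA13 and precede HOXD13. PRAC1 and PRAC2 lie between HOXB9 and HOXB13. The protocadherin genes number 53, namely 15 PCDHA, 16 PCDHB and 22 PCDHG, with SLC25A2, a mitochondrial carrier gene, and TAF7, a gene of the general transcription machinery, between them. An hg19 gene annotation was not used here, so the window names were not checked against one and no peak below is assigned to a gene, exon, intron or UTR.

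Promoters of both gene families are shown because their base composition differs. The 250 bases before the start were taken from RefSeq (GRCh38.p14), which gave 27 starts for 20 of 39 HOX genes and 52 starts for 47 of 53 protocadherin genes. Each sequence belongs to the start at or, for an even number of starts, next below the median CpG count of HOXA, HOXD, PCDHA, PCDHB or PCDHG (19, 21, 5, 6 and 7 CpG dinucleotides), is written 5′ to 3′ along the gene, and has CpG in capitals.
HOXA10, chr7:27179862-27180111, minus strand: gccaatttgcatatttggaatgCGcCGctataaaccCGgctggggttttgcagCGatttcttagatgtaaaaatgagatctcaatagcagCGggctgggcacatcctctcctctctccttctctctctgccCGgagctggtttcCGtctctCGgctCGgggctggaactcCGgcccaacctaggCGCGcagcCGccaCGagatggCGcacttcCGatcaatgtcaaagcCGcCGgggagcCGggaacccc
HOXD13, chr2:176092471-176092720, plus strand: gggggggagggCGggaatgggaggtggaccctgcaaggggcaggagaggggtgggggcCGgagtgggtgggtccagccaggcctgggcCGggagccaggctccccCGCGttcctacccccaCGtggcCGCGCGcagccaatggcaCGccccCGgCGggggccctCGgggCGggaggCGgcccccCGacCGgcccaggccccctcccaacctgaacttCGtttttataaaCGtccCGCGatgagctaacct
PCDHA11, chr5:140868707-140868956, plus strand: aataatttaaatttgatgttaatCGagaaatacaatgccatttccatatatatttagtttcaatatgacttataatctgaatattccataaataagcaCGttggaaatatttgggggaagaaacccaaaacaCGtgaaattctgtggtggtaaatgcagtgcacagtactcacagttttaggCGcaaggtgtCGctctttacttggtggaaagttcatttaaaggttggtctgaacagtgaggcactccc
PCDHB16, chr5:141182137-141182386, plus strand: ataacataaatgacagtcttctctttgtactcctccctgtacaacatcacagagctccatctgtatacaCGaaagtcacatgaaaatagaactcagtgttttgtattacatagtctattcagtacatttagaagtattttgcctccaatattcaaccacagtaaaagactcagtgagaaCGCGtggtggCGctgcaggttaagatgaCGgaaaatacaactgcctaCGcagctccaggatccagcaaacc
PCDHGB2, chr5:141359886-141360135, plus strand: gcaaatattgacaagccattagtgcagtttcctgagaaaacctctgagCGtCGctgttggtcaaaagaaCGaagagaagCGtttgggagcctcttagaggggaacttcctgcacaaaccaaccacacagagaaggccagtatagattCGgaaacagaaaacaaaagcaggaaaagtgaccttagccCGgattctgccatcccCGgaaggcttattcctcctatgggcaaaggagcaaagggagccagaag

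CpG was more frequent before HOX starts than before protocadherin starts. HOXA starts had a median of 19 CpG (range 0 to 40, 16 starts) and HOXD starts 22 (4 to 31, 8 starts). PCDHA, PCDHB and PCDHG starts had medians of 5, 6 and 7, and the median of all 35116 starts in the table was 11. At least 15 CpG stood before 16 of 27 HOX starts (59.3%), 5 of 52 protocadherin starts (9.62%) and 42.9% of all starts. HOXB and HOXC had only 1 and 2 starts in the table, with 7 and 14 CpG. The letters CGCT, read on both strands and overlapping CpG, stood before 81.5% of HOX, 96.2% of protocadherin and 64.8% of all starts. These promoters were not placed against the peaks, whose coordinates are on another build.

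Peaks of both proteins were dense in all 4 HOX clusters and sparse among the protocadherins. HOXA held 85 Spindlin1 peaks (42.5 per 100 kb, 33.9 to 52.6) and 84 C11orf84 peaks (42.0 per 100 kb, 33.5 to 52.0). HOXD held 60 (37.5, 28.6 to 48.3) and 66 (41.2, 31.9 to 52.5). HOXC held 52 (30.6, 22.8 to 40.1) and 65 (38.2, 29.5 to 48.7), and HOXB held 62 (24.8, 19.0 to 31.8) and 77 (30.8, 24.3 to 38.5). In the protocadherin window of 750 kb there were 12 Spindlin1 peaks (1.6 per 100 kb, 0.827 to 2.79) and 27 C11orf84 peaks (3.6 per 100 kb, 2.37 to 5.24). The mean over chromosomes 1 to 22 and X was 5.21 and 6.04 per 100 kb. Every HOX interval lay above that mean and both protocadherin intervals lay below it. Chromosomes differ in density, and chromosome 17, which carries HOXB, had 13.8 and 15.6 peaks per 100 kb, still below the HOXB intervals. Chromosome 5 had 3.7 and 4.17, so the protocadherin interval for C11orf84 included the value of its own chromosome and that for Spindlin1 did not. HOXA had the highest value in both lists and HOXB the lowest of the HOX clusters. Neighbours in that order had overlapping intervals.

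**Figure D1:**
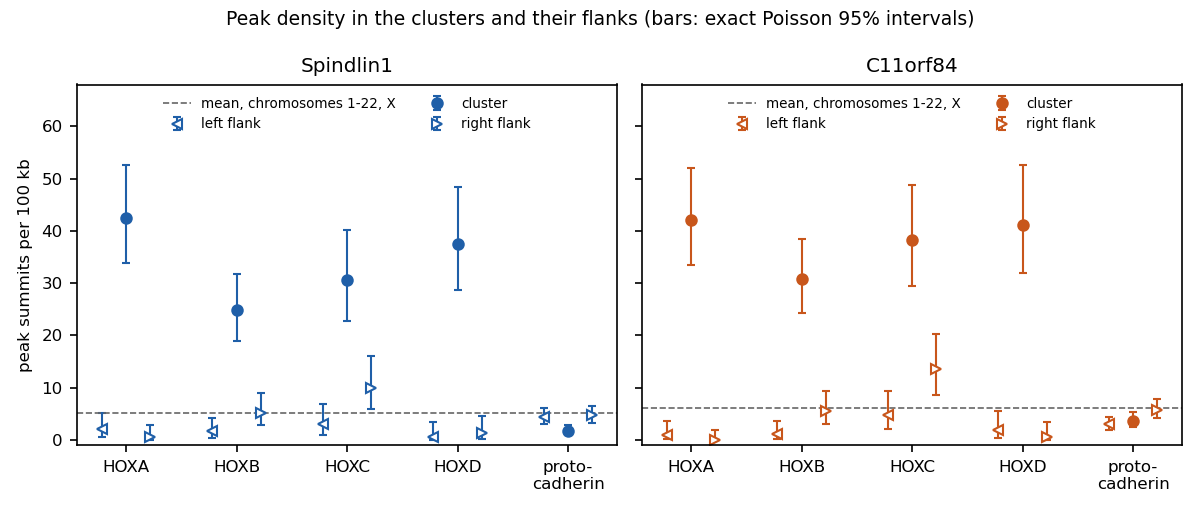
Peak summits per 100 kb (vertical axis) in each window (filled circles) and in its left and right flank of equal length (open triangles), for Spindlin1 and C11orf84, with exact Poisson 95% intervals and the mean over chromosomes 1 to 22 and X (dashed). The HOX windows lie at 24.8 to 42.5 per 100 kb, while the protocadherin window lies at 1.6 and 3.6.

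The flanks, 1 cluster length on each side, showed that the HOX density ended near the windows. HOXA had 5 Spindlin1 and 2 C11orf84 peaks in both flanks together, and its density was 34 times (14 to 107) and 84 times (22.5 to 705) that of the flanks. HOXD had 3 and 4 flank peaks, with ratios of 40 (13 to 199) and 33 (12.3 to 125). HOXB had 17 and 17 flank peaks, with ratios of 7.29 (4.21 to 13.3) and 9.06 (5.31 to 16.3). HOXC had 22 and 31, with ratios of 4.73 (2.82 to 8.17) and 4.19 (2.69 to 6.66). The upper bounds for HOXA and HOXD are loose because they rest on so few flank peaks. Over the 4 HOX clusters, 259 Spindlin1 peaks stood against 47 in the flanks, 11 times the density (8.05 to 15.4). For C11orf84, 292 stood against 54, 10.8 times (8.07 to 14.7). Among peaks with a −log10 q of 10 or more the pooled ratios were 17 (6.06 to 65.9) and 19.2 (7.68 to 61.8), with 4 and 5 such peaks in the flanks. These intervals include the ratios over all peaks, so a higher ratio was not shown.

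The flanks were not alike. The right flanks of HOXB (13 Spindlin1 and 14 C11orf84 peaks) and HOXC (17 and 23) held most of the HOX flank peaks. The right flank of HOXA had 1 Spindlin1 and 0 C11orf84 peaks, and 0 peaks allows up to 1.84 per 100 kb. Few flank peaks lay directly beside the windows. Within 50 kb of either edge of HOXC there were 0 peaks of both lists, the nearest summit of both lists standing 50.1 kb past the right edge. The first 50 kb on either side of HOXD held 1 Spindlin1 peak and 0 C11orf84 peaks. HOXA had 3 Spindlin1 and 0 C11orf84 peaks within 50 kb. HOXB had 5 peaks of each list there, 3 of them on the right, the nearest 0.525 and 0.579 kb past the edge, so its dense stretch reached the end of its window.

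The protocadherin window differed from its flanks in the Spindlin1 list. Its flanks held 68 Spindlin1 peaks in 1500 kb (4.53 per 100 kb), so the window had 0.353 times their density (0.174 to 0.657). C11orf84 had 65 peaks in the flanks (4.33 per 100 kb), and the ratio was 0.831 (0.51 to 1.32), an interval that includes equal density. Against flanks of 50% of the window's length the C11orf84 ratio was 0.551 (0.331 to 0.899), an interval that does not, so the call depends on how far the flanks reach. The Spindlin1 part of all peaks in the window was 12 of 39 (30.8%, 17 to 47.6), against 46.3% over chromosomes 1 to 22 and X, a value within the interval. In the HOX clusters it was 259 of 551 (47.0%, 42.8 to 51.3).

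In bases, Spindlin1 peaks covered 13.1% of the HOXA window, 11.4% of HOXD, 8.99% of HOXC and 7.47% of HOXB. C11orf84 peaks covered 16.1%, 13.6%, 12.3% and 10.7% in the same order. The protocadherin window was covered to 0.459% and 0.913%. Flanks of the HOX clusters were covered to 0.754% by Spindlin1 and 0.971% by C11orf84, against 10.0% and 13% of the clusters. Both proteins together covered 53393 bp of the HOX clusters, which is 68.1% of the Spindlin1 bases and 52.5% of the C11orf84 bases there. In the protocadherin window they shared 1886 bp, 54.8% and 27.6% of the covered bases.

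**Figure D2:**
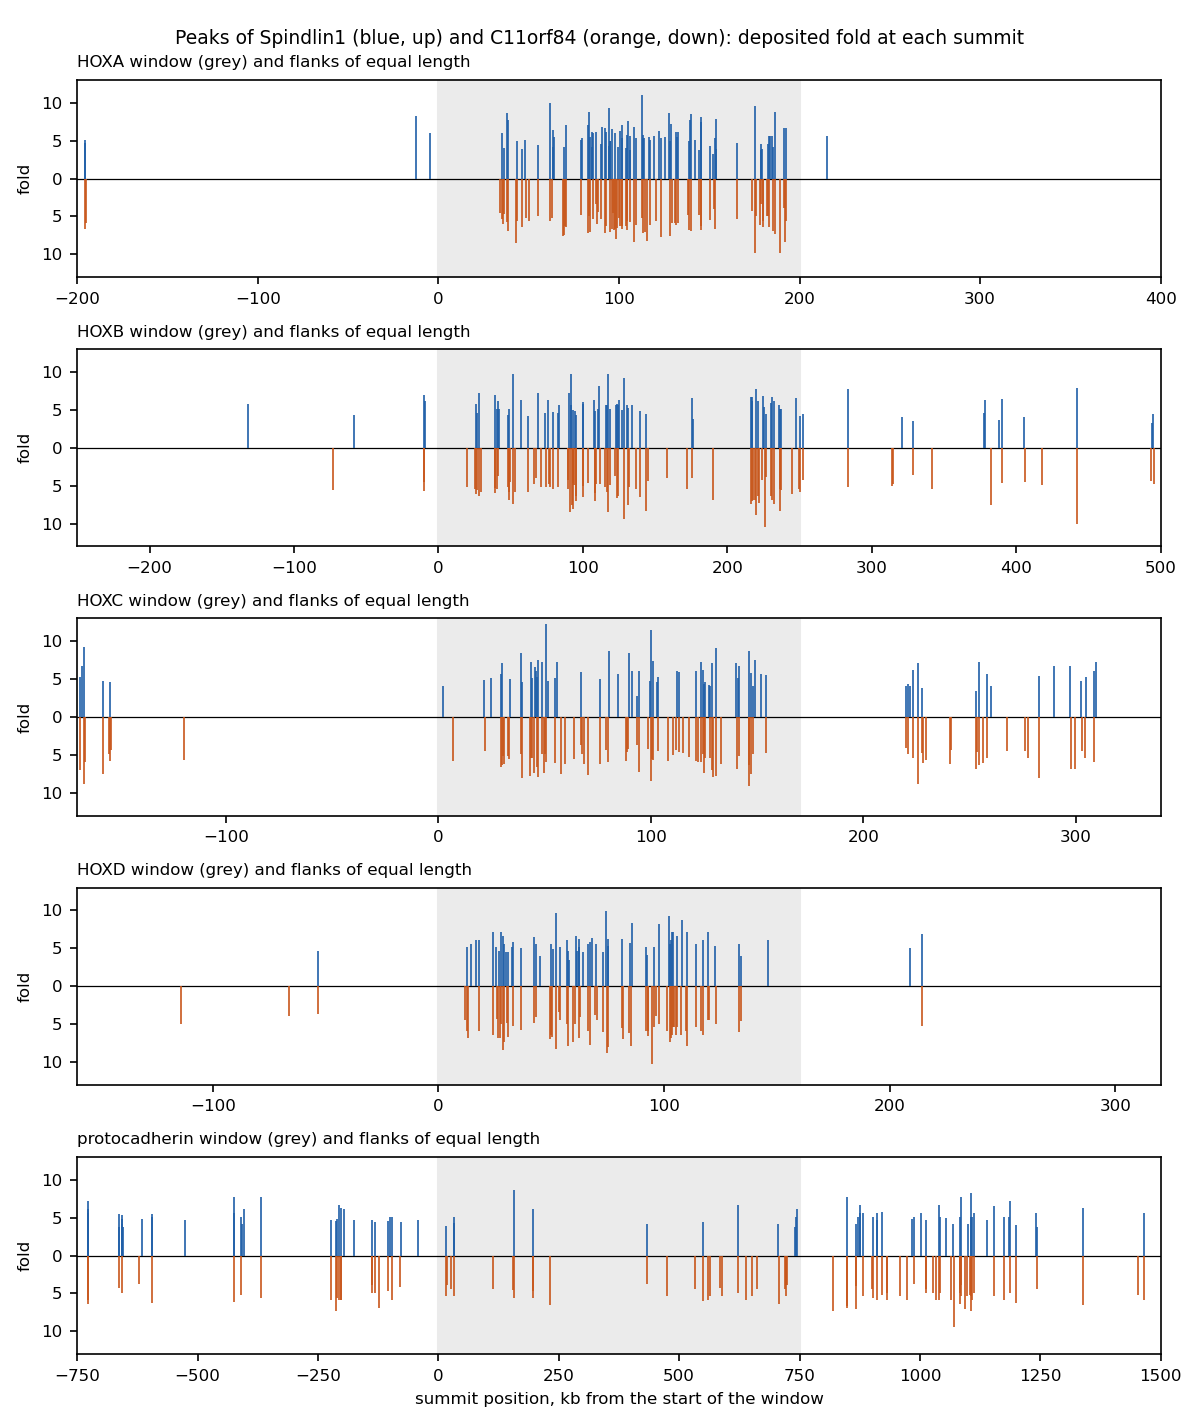
Each vertical line is a peak, placed by its summit in kb from the start of the window, with the deposited fold as its height, upward for Spindlin1 (blue) and downward for C11orf84 (orange). Windows are grey and flanks of equal length white. Each HOX window holds a dense block of about 120 to 133 kb, HOXA and HOXB also hold a smaller block to its right, and the protocadherin window has fewer lines than its flanks for Spindlin1.

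Within the HOX windows most peaks lay in a single block, taken as a run of peaks of either list with no peak-free stretch of 10 kb or more. The HOXD block (chr2:176931822-177054271, 122 kb) held 59 of 60 Spindlin1 and all 66 C11orf84 peaks. The HOXC block (chr12:54321386-54454481, 133 kb) held 51 of 52 and 64 of 65. HOXA had a block of 120 kb (chr7:27134148-27253873) with 72 and 67 peaks and another of 27.7 kb (chr7:27265211-27292866) with 13 and 17. HOXB had a block of 126 kb (chr17:46599498-46724998) with 45 and 55 peaks and another of 33.4 kb (chr17:46796284-46829715) with 15 and 18. The larger HOXA block was the fullest for Spindlin1, at 6.01 peaks per 10 kb, and the smaller HOXA block for C11orf84, at 6.15 per 10 kb. In the larger HOXB block the values were 3.59 and 4.38.

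Between its blocks HOXA had a stretch of 11337 bp without a peak of either list (chr7:27253874-27265210). The longest stretch of HOXA was 34147 bp at the left edge of the window (chr7:27100001-27134147). In HOXB the longest was 26372 bp (chr17:46769912-46796283), directly before the smaller block. Its left edge had another of 19497 bp. HOXC was empty over its last 15519 bp and over 14397 bp from 54306989 to 54321385. HOXD was empty over its last 13864 bp and its first 11821 bp. The protocadherin window held far longer ones, of 200192 bp (chr5:140382014-140582205) and 80781 bp (chr5:140183110-140263890).

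Neighbouring HOX peaks of the same list lay close to each other. The median distance between successive summits was 932 bp for Spindlin1 and 1001 bp for C11orf84 in HOXA, 1521 and 1103 bp in HOXD, 1683 and 1248 bp in HOXC and 1699 and 1384 bp in HOXB. In the protocadherin window it was 39771 and 12842 bp. Most windows of 10 kb in the HOX clusters held peaks of both lists. Spindlin1 and C11orf84 peaks shared all 17 filled windows of 20 in HOXA, and both were present in 18 of 25 windows in HOXB, 15 of 17 in HOXC and 13 of 16 in HOXD. In HOXB 18 windows held Spindlin1 and 21 held C11orf84, and in HOXD 14 and 13 did. In the protocadherin window 55 of 75 such windows had no peak and 8 had both. The share of windows with both over the genome was not counted, and the part of peak density in these numbers was not tested. The fullest windows were chr7:27190001-27200000 in HOXA with 11 peaks of each list, chr2:177020001-177030000 in HOXD with 7 Spindlin1 and 10 C11orf84 peaks, chr12:54420001-54430000 in HOXC with 8 and 9, and chr17:46670001-46680000 in HOXB with 7 and 9. The fullest protocadherin window (chr5:140870001-140880000) had 0 Spindlin1 and 4 C11orf84 peaks.

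Peaks of the 2 proteins overlapped in most of the HOX members. A peak counts as shared where it and any interval of the other antibody overlap by 1 bp or more. Of the Spindlin1 peaks, 69 of 85 in HOXA (81.2%, 71.2 to 88.8), 48 of 62 in HOXB (77.4%, 65.0 to 87.1), 37 of 52 in HOXC (71.2%, 56.9 to 82.9) and 49 of 60 in HOXD (81.7%, 69.6 to 90.5) were shared. Over the whole list the percentage was 69.7. It lay below the HOXA interval and within the others. For C11orf84, 62 of 84 in HOXA (73.8%, 63.1 to 82.8), 48 of 77 in HOXB (62.3%, 50.6 to 73.1), 36 of 65 in HOXC (55.4%, 42.5 to 67.7) and 47 of 66 in HOXD (71.2%, 58.7 to 81.7) were shared, against 57.6% over the whole list. That value lay below the HOXA and HOXD intervals and within the others. Over the 4 HOX clusters, 203 of 259 Spindlin1 peaks (78.4%, 72.9 to 83.2) and 193 of 292 C11orf84 peaks (66.1%, 60.4 to 71.5) were shared. The flanks gave 59.6% (44.3 to 73.6) and 51.9% (37.8 to 65.7). The excess over the lists depended on what counts as shared. With 50% of both intervals in common it was 133 of 259 Spindlin1 peaks (51.4%, 45.1 to 57.6), against 47.5% of the list, and 133 of 292 C11orf84 peaks (45.5%, 39.7 to 51.5), against 41.1%, each within counting error. With summits at most 200 bp apart it was 60.2% (54 to 66.2) against 55.1%, and 53.4% (47.5 to 59.3) against 47.5%. Coverage was also many times higher in the clusters than in their flanks, and the part of this crowding in the overlap was not tested.

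In the protocadherin window the shared part differed between the 2 lists. Spindlin1 shared 8 of 12 (66.7%, 34.9 to 90.1), near the 69.7% of its list. C11orf84 shared 8 of 27 (29.6%, 13.8 to 50.2), and both the 57.6% of its list and the 55.4% of its flanks lay above that interval. With 12 Spindlin1 peaks in the window, sharing 1 to 1 could reach 12 of 27 at most, which is also under both values. The low C11orf84 share therefore cannot be told apart from the low number of Spindlin1 peaks. With 50% of both intervals in common it was 6 of 27 (22.2%, 8.62 to 42.3), an interval that includes the 41.1% of the list, while with summits at most 200 bp apart it was again 6 of 27, below the 47.5% of the list. Of the 19 unshared C11orf84 peaks, 16 had no Spindlin1 summit within 5 kb, and 3 of the 4 unshared Spindlin1 peaks had no C11orf84 summit that near. In the 4 HOX clusters this was so for 3 of 99 unshared C11orf84 peaks and 1 of 56 unshared Spindlin1 peaks. The share over the whole lists was not counted at 5 kb. At 1 kb, 2 of the 19 had a Spindlin1 summit, against 38.8% of unshared C11orf84 peaks over the whole lists. Successive Spindlin1 summits in this window stood a median of 39771 bp apart, and the part of this low density was not tested. A missing peak is the absence of a call at this depth and not the absence of the protein.

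**Figure D3:**
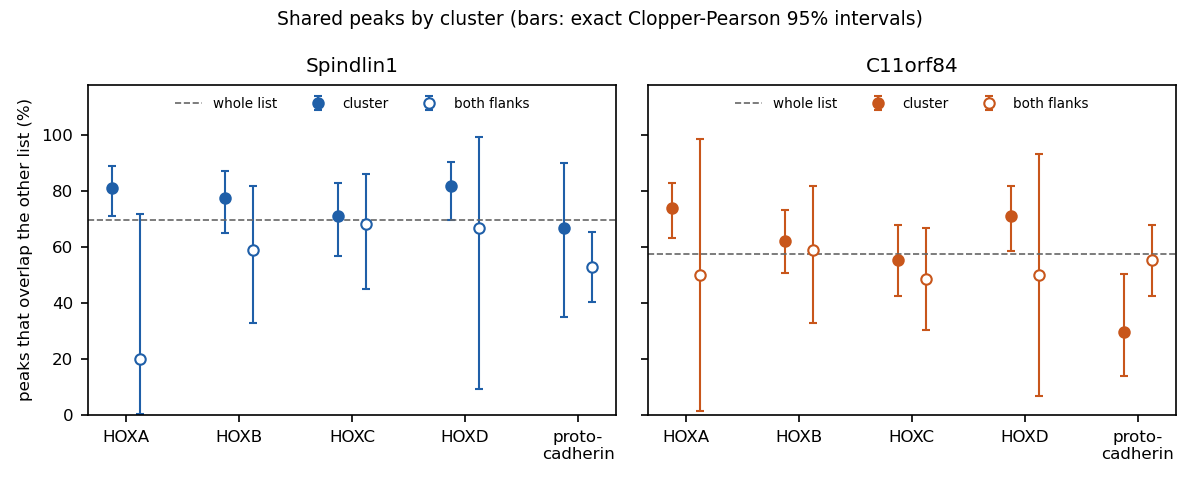
Percentage of peaks that overlap the other list (vertical axis) in each window (filled) and its 2 flanks together (open), with exact Clopper-Pearson 95% intervals. The dashed line is the whole list, 69.7% for Spindlin1 and 57.6% for C11orf84. HOXA, HOXB and HOXD are above the line in both panels, and HOXC for Spindlin1 only. Whole intervals lie above it for HOXA in both panels and for HOXD in C11orf84. The C11orf84 peaks of the protocadherin window, at 29.6%, are below it.

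The HOX peaks were numerous but of ordinary strength for their lists. The authors' fold, the ratio of summit to local background, had a median of 5.56 in HOXA, 5.64 in HOXB, 5.97 in HOXC and 5.64 in HOXD for Spindlin1, against 5.72 over the whole list. For C11orf84 the medians were 6.10, 5.82, 5.77 and 5.89, against 5.89. Summit depth is the number of fragments over the summit, computed back from fold and p-value. Its median was 12 for Spindlin1 and 13 for C11orf84 in the HOX clusters, against 11 and 12. Strong peaks, those with a −log10 q of 10 or more (q is the p-value adjusted for the number of tests), numbered 34 of 259 for Spindlin1 (13.1%, 9.27 to 17.9), against 11.8% of the whole list, and 48 of 292 for C11orf84 (16.4%, 12.4 to 21.2), against 15.7%. Of these strong peaks, 31 of 34 for Spindlin1 (91.2%, 76.3 to 98.1) and 36 of 48 for C11orf84 (75%, 60.4 to 86.4) were shared, against 90.9% and 83.7% of the strong peaks of the whole lists. A fold at or above the 90th percentile of the list, which is 7.7 for Spindlin1 and 7.85 for C11orf84, was found in 31 (12%) and 28 (9.59%) HOX peaks, against 12.4% and 12%. These percentages are near those of the whole lists. Peaks were slightly wider than the list, with medians of 249 and 280 bp against 229 and 248 bp.

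Protocadherin peaks had low median folds for their lists, as did those of their flanks. The median was 4.81 for Spindlin1 (interval 4.11 to 6.16, which includes the 5.72 of the list) and 5.40 for C11orf84 (4.42 to 5.40), at 10.5 and 10 fragments. Flank medians were 5.13 and 5.6. By the same q, 1 of the 12 Spindlin1 peaks was strong (8.33%, 0.211 to 38.5), and 0 of 27 for C11orf84, which allows up to 12.8%. The flanks held 2 of 68 strong peaks for Spindlin1 (2.94%, 0.358 to 10.2) and 2 of 65 for C11orf84 (3.08%, 0.375 to 10.7), so the few strong peaks were not shown to be particular to the window. Median widths were 209 and 210 bp.

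**Figure D4:**
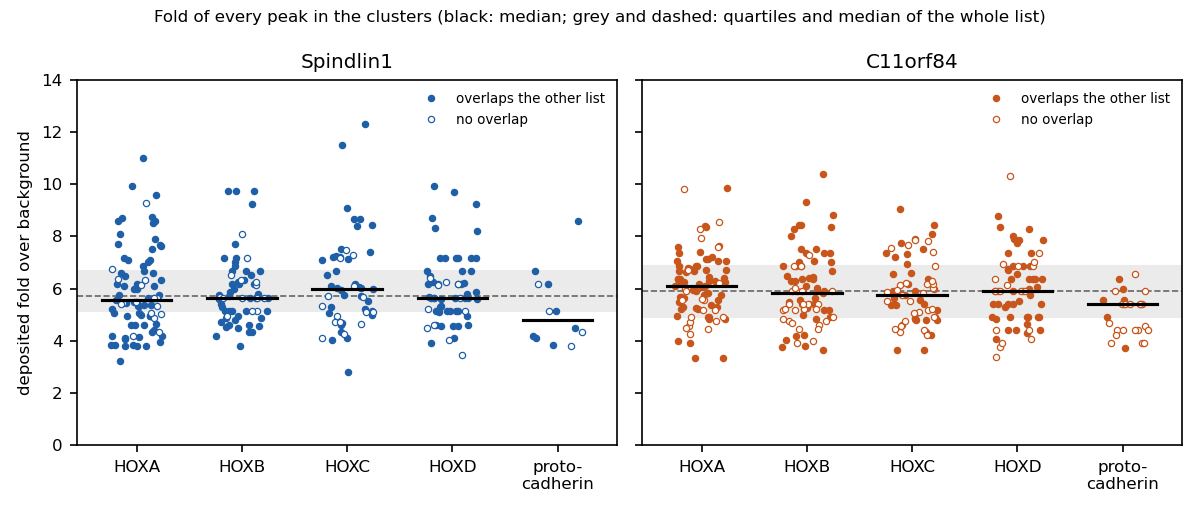
Deposited fold (vertical axis) of every peak in each window, filled where it overlaps the other list and open where it does not, with sideways scatter for visibility. Black bars are medians, and the grey band and dashed line are the quartiles and median of the whole list. HOX medians lie inside the band, while the protocadherin median for Spindlin1, 4.81, lies under it.

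The local background under the peaks differed between clusters. It is given in multiples of the lowest background of its list. HOXA had medians of 1.21 for Spindlin1 and 1.23 for C11orf84, HOXC 1.19 and 1.37, HOXB 1.10 and 1.09, and HOXD 1.00 and 1.00. Over the whole lists the medians were 1.05 and 1.01. In HOXA 10.6% and 14.3% of peaks stood at the lowest background, in HOXD 56.7% and 63.6%, and over the lists 48.2% and 49.3%. Backgrounds of at least 2 times the lowest were found at 18 of 259 Spindlin1 HOX peaks (6.95%), against 9.07% of the list, and at 31 of 292 C11orf84 peaks (10.6%), against 9.19%. HOXB held 14 of these 31 (18.2% of its 77 peaks, 10.3 to 28.6), above the percentage of the list. In the HOXB flanks it was 6 of 17 C11orf84 peaks (35.3%, 14.2 to 61.7), so this was not shown to be particular to the window. Flanks of the 4 HOX clusters together had 21.3% for Spindlin1 and 22.2% for C11orf84. Without peaks of such raised background each density ratio stayed within the interval given above. The HOXD ratios were then 116 (20.0 to 4659.8) for Spindlin1 and 62 (16.5 to 523) for C11orf84, which are loose because few flank peaks were left. HOXA and HOXD, which had the highest densities, thus stood on different backgrounds.

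In HOXA the Spindlin1 peak of highest fold was chr7:27212495-27213003, with a fold of 11 at 22 fragments, rank 756 in its list. The C11orf84 peak that overlaps it had a fold of 5.21 at 16 fragments on a background of 2.18 times the lowest. Next came chr7:27161681-27162139, with a Spindlin1 fold of 9.92 and a C11orf84 fold of 5.66. At chr7:27275005-27275349, in the smaller block, the Spindlin1 fold of 9.6 and the C11orf84 fold of 9.85 shared a summit to the base (27275228), and this was also the highest C11orf84 fold of HOXA. The following C11orf84 peaks, at chr7:27288973-27289252 (fold 9.82 at 19 fragments) and chr7:27142557-27142771 (fold 8.55), overlapped no Spindlin1 peak. A Spindlin1 peak at chr7:27194160-27194402 (fold 9.3 at 18 fragments) overlapped no C11orf84 peak, the nearest summit being 683 bp away. The Spindlin1 peak of highest summit depth in the 5 windows, 24 fragments at chr7:27190221-27190570, stood on a background of 2.85 times the lowest, so its fold was 6.74, and it overlapped no C11orf84 peak. The widest peaks of HOXA were 1035 bp for Spindlin1 and 1071 bp for C11orf84.

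HOXC had the highest Spindlin1 folds of all 5 windows. At chr12:54350373-54350759 the fold was 12.3 at 23 fragments on the lowest background, rank 170 in the list, and at chr12:54399869-54400140 it was 11.5 at 23 fragments, rank 416. C11orf84 folds there were 5.89 at 11 fragments and 8.45 at 17, with summits 3 and 32 bp away. The highest C11orf84 fold of HOXC was 9.04 at chr12:54445875-54446120, beside a Spindlin1 fold of 8.68. The widest HOX peak of either list, 1333 bp, was a C11orf84 peak at chr12:54344642-54345974 that held 2 Spindlin1 peaks within it. Unshared peaks of HOXC reached a fold of 7.48 for Spindlin1 and 7.85 for C11orf84.

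In HOXB 3 Spindlin1 peaks had the same fold of 9.75 at 18 fragments on the lowest background, at chr17:46631733-46632299, chr17:46671320-46671554 and chr17:46697157-46697541. C11orf84 folds at them were 7.36, 8.45 and 8.45. The highest C11orf84 fold of the HOX windows was 10.4 at 22 fragments, at chr17:46805731-46806101 in the smaller HOXB block, where Spindlin1 had 5.41 on a background of 2.06 times the lowest. C11orf84 had 9.33 at chr17:46708300-46708916, beside a Spindlin1 fold of 9.24. The highest summit depth of either list in the 5 windows was that of C11orf84 at chr17:46723597-46724384, with 25 fragments. Both lists had their widest HOXB peak there, and backgrounds were 2.06 times the lowest for C11orf84 and 3.42 times for Spindlin1.

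In HOXD the Spindlin1 peak of highest fold was chr2:176994157-176994668, with a fold of 9.95 at 21 fragments, rank 2054 in its list. C11orf84 had 8.8 at 19 fragments there. C11orf84 had a fold of 10.3 at 20 fragments on the lowest background at chr2:177014183-177014725. It overlapped no Spindlin1 peak, the nearest Spindlin1 summit being 1092 bp away, and was the strongest unshared peak of either list in the 5 windows. Spindlin1 folds at chr2:176971755-176972189 and chr2:177021829-177022207 were 9.7 and 9.24, with C11orf84 folds of 8.3 and 7.36.

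The protocadherin window had 1 Spindlin1 peak that stood out, chr5:140306030-140306887. It was the widest of its list there, at 858 bp, with a fold of 8.59 at 18 fragments, rank 8330. C11orf84 had a fold of 5.56 at 14 fragments at this place. At chr5:140772337-140772647 the Spindlin1 fold was 6.67 and the C11orf84 fold 4.91, and at chr5:140346055-140346425 they were 6.16 and 5.56. The highest C11orf84 fold was 6.57 at chr5:140381765-140382013, where the nearest Spindlin1 summit lay 35693 bp away. Others were 6.38 at chr5:140856330-140856579 and 6.0 at chr5:140700147-140700334, both shared. The last 3 Spindlin1 peaks of the window, from 140890589 to 140895803, had no C11orf84 peak with them, and the 4 C11orf84 peaks from 140870442 to 140874628 had no Spindlin1 peak.

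Joining intervals of both lists that overlap gave 341 regions in the HOX clusters. Of these, 164 (48.1%) held 1 peak of each list, 22 (6.45%) held several peaks, 56 (16.4%) held Spindlin1 alone and 99 (29.0%) C11orf84 alone. Over the whole lists these were 37.8%, 6.14%, 21.4% and 34.6% of 217284 regions. C11orf84 alone made up 22.2% of regions in HOXA, 25% in HOXD, 33.3% in HOXB and 36.7% in HOXC. In the protocadherin window it was 19 of 31 regions (61.3%), beside 4 with Spindlin1 alone and 8 with both.

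In the 164 HOX regions with 1 peak of each list, summits lay a median of 56.5 bp apart, from 0 to 513 bp, and 78 (47.6%) lay within 50 bp. Over the whole lists 52.8% of such regions had summits that close, a value within the HOX interval (39.7 to 55.5). C11orf84 had the deeper summit in 97 (59.1%, 51.2 to 66.7), Spindlin1 in 56, and 11 were equal. The C11orf84 interval was the wider in 109 (66.5%, 58.7 to 73.6). Over the whole lists C11orf84 was deeper in 53.8% and wider in 64.2% of 82199 such regions, so the HOX values were near the background of the 2 libraries, whose total reads are unknown. Excess depth of C11orf84 was most frequent in HOXB, at 26 of 38 regions against 8 for Spindlin1, and near balance in HOXC, at 16 against 15. These counts are given without intervals, so a difference between clusters was not shown. Summit depths of the 2 lists had a Spearman correlation of 0.419 and a Pearson correlation of 0.444 over these regions, given as a description. The points share the cell line and the local base composition. Within clusters the Spearman value went from 0.217 in HOXD through 0.312 in HOXA and 0.418 in HOXC to 0.671 in HOXB. No interval is given for these values, so an order of the clusters was not shown. Some deep HOXB pairs stood on raised background in both lists, as at chr17:46688454-46688638 (17 and 22 fragments, 2.85 and 2.73 times the lowest). Others did not, as at chr17:46708687-46708928 (17 and 18 fragments). The part of background in the correlation was not tested.

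**Figure D5:**
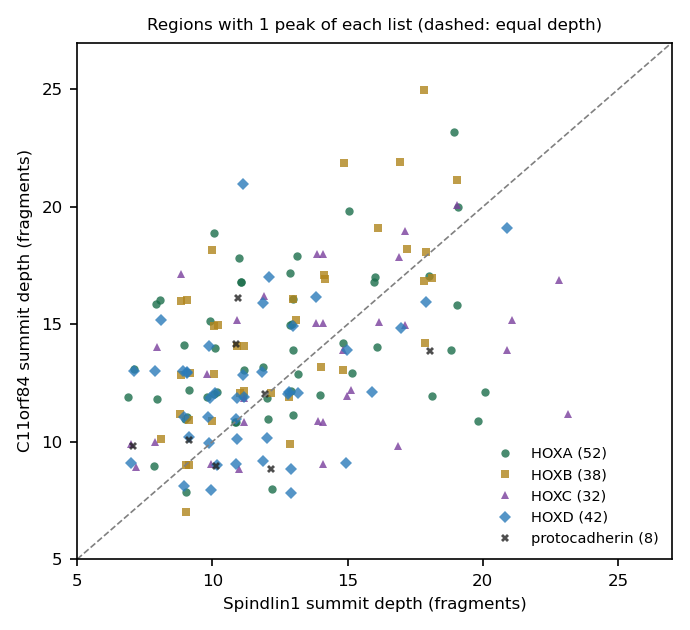
Summit depth of Spindlin1 (horizontal) and C11orf84 (vertical), in fragments, for regions holding 1 peak of each list, with a small random offset so that equal values can be seen. Symbols mark the 5 windows with the number of regions, and the dashed line is equal depth. More HOX points lie above the line (97) than below it (56).

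Over the 4 HOX clusters together, shared Spindlin1 peaks had a median fold of 5.76 at 12 fragments and unshared ones 5.63 at 11. For C11orf84 these were 6.10 at 13 and 5.53 at 12. Clusters differed in this. In HOXB the median C11orf84 fold was 6.38 (14 fragments) for shared and 5.21 (11 fragments) for unshared peaks. In HOXC the Spindlin1 medians were 6.07 (14 fragments) and 5.11 (11 fragments). In HOXD shared and unshared C11orf84 peaks both had 5.89. The order was reversed for C11orf84 in HOXC, at 5.69 for shared and 5.83 for unshared peaks, and for Spindlin1 in HOXB, at 5.64 and 5.67. Shared peaks had the higher median in HOXA for both lists and in HOXD for Spindlin1. These medians are given without intervals and without the values of the whole lists. Unshared peaks were narrower, with medians of 202 against 271 bp for Spindlin1 and 220 against 346 bp for C11orf84. The part of width in the overlap was not tested. A summit of the other list lay within 1 kb of 33 of 56 unshared Spindlin1 peaks (58.9%, 45 to 71.9) and 66 of 99 unshared C11orf84 peaks (66.7%, 56.5 to 75.8), against 40.9% and 38.8% over the whole lists. In HOXB it was 6 of 14 for Spindlin1. Peaks are denser in the HOX clusters than over the genome, and the part of this density was not tested.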

How the data were processed

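The processing notes of the submitters name Bowtie 1.2.2 and the human build hg19. Not given in the sources used here are the peak caller, its threshold and its control. Each deposited peak list belongs to 1 sample. Fold values are the authors' ratio of summit signal to background, next to which the deposited columns hold −log10 p-value and −log10 q-value, and a score that was left unused. The layout was read as narrowPeak, since the lists have no header. Lowest −log10 q was 2.05 for Spindlin1 and 2.01 for C11orf84. Total reads are unknown.

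Summit depth k and background λ were computed back from fold = (k + 1)/(λ + 1) and the p-value, read as the Poisson chance of exceeding k. A whole number k from 1 to 400 met both for 153468 Spindlin1 and 177639 C11orf84 peaks, missing −log10 p by 0.000174 and 0.000148 at most. Recovery and overlap were tested on simulated data. Peaks were assigned by summit, edges included. Flanks had 100% of the cluster length on each side. Whole-list values used chromosomes 1 to 22 and X, and mean density the 2942 Mb from first to last peak of each chromosome. Poisson, Clopper-Pearson and conditional binomial intervals are exact. With 1 library per antibody no test between groups was made.

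Named peaks are, per window and list, the 3 of highest fold, the unshared one of highest fold and the widest, beside the 2 longest peak-free stretches and the fullest 10 kb window. The peaks of highest summit depth, the 10 kb rule for blocks, the runs of peaks at the end of the protocadherin window and the promoter counts were chosen after values were seen. The windows and lists were chosen with earlier results of these data known. A planned count of peaks at gene starts was not run, as it needs an hg19 annotation. Software versions were pandas 2.3.3, SciPy 1.17.1, matplotlib 3.10.9, NumPy 2.4.6 and Python 3.11.15.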

Additional observations from a re-analysis of the deposited data

How the results depend on the processing

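Density ratios of the clusters to their flanks stayed within the interval of their main value with flanks of 50% of the cluster length, with membership by any overlap of the interval with the window, and without peaks of raised background, wherever a ratio could be formed. Ratios that moved by 1.5 times or more with the shorter flanks were those of HOXD (20 for Spindlin1, 22 for C11orf84) and of C11orf84 in the protocadherin window (0.551, 0.331 to 0.899), whose interval then excluded 1. With a −log10 q of at least 10 the ratio was 16 for Spindlin1 in HOXC and 12 in HOXD, 20 for C11orf84 in HOXB, and 1 for Spindlin1 in the protocadherin window, where 1 peak was left. For the 4 HOX clusters together it was 17 (6.06 to 65.9) for Spindlin1 and 19.2 (7.68 to 61.8) for C11orf84. These are over 1.5 times the main values, which both intervals include. No ratio could be formed for C11orf84 in HOXA with the shorter flanks, nor at the stricter q in HOXA, HOXD and the protocadherin window, because flanks or window were empty.

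Where an overlap had to span 50% of each interval, the shared part of Spindlin1 was 52.9% in HOXA, 53.2% in HOXB, 48.1% in HOXC and 50% in HOXD, and that of C11orf84 53.6%, 42.9%, 38.5% and 45.5%. With summits at most 200 bp apart it was 61.2%, 59.7%, 50% and 68.3% for Spindlin1, and 61.9%, 48.1%, 40% and 62.1% for C11orf84. At the stricter q it was 86.7% of 15 Spindlin1 peaks in HOXA, 80% of 5 in HOXB, 100% of 8 in HOXC, 100% of 6 in HOXD and 100% of 1 in the protocadherin window, against 90.9% of the whole list at that q. For C11orf84 it was 66.7% of 15 in HOXA, 100% of 10 in HOXB, 58.3% of 12 in HOXC and 81.8% of 11 in HOXD, against 83.7%.

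The stricter q lowers coverage and raises medians by construction. Coverage of the HOX clusters was then 1.6% and 2.69%, of their flanks 0.0907% and 0.0985%, of the protocadherin window 0.114% and 0%, and of its flanks 0.036% and 0.0337%. Median folds were 8.7 and 7.91 in HOX, both at 18 fragments, and 8.59 at 18 fragments for Spindlin1 in the protocadherin window. No paired analysis was possible because each antibody has 1 library. The count at gene starts was not run.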
